A study of Mus musculus with 6 samples.

Results

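The collagen chain genes of the mouse were described in cultured muscle satellite cells with and without Islr. They were taken from the main expression table by symbol, as every gene named Col followed by a number, the letter a and a number, and 43 of 27366 features fit. RNA came from 6 libraries of day 4 satellite cells, the resident muscle stem cells, grown in serum-rich medium with basic FGF. The labels put 3 libraries (numbers 1 to 3) in an Islr knockout group and 3 (numbers 1 to 3) in a control group, and the design text names FACS by whether Islr was present. The Islr product is a secreted leucine-rich repeat protein. The sources used here do not say how the knockout was made, which strain and age the animals had, or what the numbers mark. No label ties a library to its own animal or culture, so p-values measure only the spread between these libraries, which may be technical.

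Collagens are secreted or membrane-bound matrix proteins in which α chains with a glycine at each repeat wind into a common helix. Fibrillar chains build the tension-bearing fibrils, type IV chains form the sheet-like network of the basement membrane that encloses each muscle fibre and its satellite cell, and FACIT chains (fibril-associated collagens with interrupted helices) sit on the fibril surface. Transmembrane chains are held in the plasma membrane. The remaining chains include those of beaded filaments (type VI), anchoring fibrils (type VII), hexagonal networks (types VIII and X) and the proteoglycan-like collagens of types XV and XVIII. Col26a1 and Col28a1 were also counted among them. By these classes the 43 genes were 11 fibrillar, 6 basement membrane, 9 FACIT, 4 transmembrane and 13 other chains.

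Levels are given as scaled reads, the gene's read count divided by 1 size factor per library. Levels of different genes are compared as FPKM, the authors' values scaled for gene length and depth. Libraries held 16456917 to 20531276 reads on genes. Islr itself had 256.7, 7.38 and 10.9 scaled reads in knockout libraries 1, 2 and 3, against 181.1, 12.8 and 1579 in control libraries 1, 2 and 3. Islr knockout 1 exceeded control 1 and control 2, and control 2 was as low as Islr knockout 2 and 3, neither of which fits the labels; knockout and control below mean the libraries labelled so, and every direction is between the labelled groups. The deleted part of Islr is not stated, and reads from outside it check nothing. Pax7, the transcription factor of satellite cells, was read in every library, at 1558, 1667 and 1319 scaled reads in the knockout libraries and 1233, 2729 and 1634 in the control libraries. Myog, the myogenic factor of differentiating cells, separated the libraries another way. It stood at 37228, 1998 and 5737 scaled reads in the knockout libraries and 43370, 417.2 and 43261 in the control libraries, so that Islr knockout 1, control 1 and control 3 were high.

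Collagen transcripts took a small share of each library, and that share was larger in each knockout library than in any control library. It was 0.287%, 0.368% and 0.341% of reads on genes in the knockout libraries, against 0.272%, 0.229% and 0.2499% in the control libraries. Summed over the 43 genes, the level averaged 59627 ± 7050 scaled reads in knockout libraries and 46467 ± 3840 in control libraries (SD, n = 3 each). The knockout sum over the control sum of the same number was 1.06, 1.51 and 1.31 in numbers 1, 2 and 3. The 6 genes with the most reads (Col5a2, Col4a1, Col3a1, Col18a1, Col4a2 and Col1a2) held 75.4% of all collagen reads on average. No test is given for this sum, as it pools the members.

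**Figure D1:**
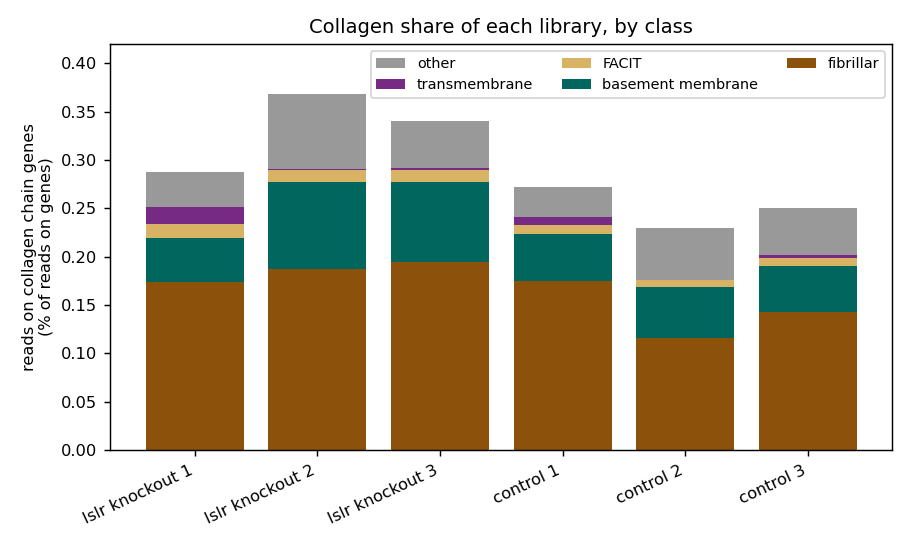
Reads on collagen chain genes as a percentage of reads on genes, stacked by class, for 3 libraries labelled Islr knockout and 3 labelled control. The stacks reach 0.287% to 0.368% in knockout libraries and 0.229% to 0.272% in control libraries, with fibrillar chains as the largest part of every bar.

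Fibrillar chains summed to 32579, 34408 and 32720 scaled reads in knockout libraries, against 32792, 22630 and 25049 in control libraries, so that control 1 lay within the knockout range. Basement membrane chains summed to 8554, 16385 and 13906 against 8934, 10259 and 8279, with Islr knockout 1 among the control values. FACIT chains summed to 2870, 2378 and 2087 against 1743, 1442 and 1363, and here the groups did not overlap, with a ratio of 1.65, 1.65 and 1.53 in numbers 1, 2 and 3. Transmembrane chains summed to 3152, 161.5 and 466.2 against 1701, 145.7 and 597.5, a spread within each group that was far wider than any gap between them. The other chains summed to 6819, 14194 and 8201 against 5686, 10341 and 8440.

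The comparison of the groups asked which chains differed between libraries labelled Islr knockout and control. It was fitted with limma on log2(scaled reads + 1) over all 20344 genes with a mean of at least 1 scaled read, two-sided, with Benjamini-Hochberg adjustment over all of them. Fold changes are on this scale, where those of low genes can be larger or smaller than in a count model. Col23a1 was at 1.98 here and 1.155 in the count model DESeq2, and Col4a3 at 2.36 and 2.68. Of the 43 chain genes, 41 passed this filter; Col9a1 had 3 reads in control 3 alone and Col6a6 had 1 read in control 1 alone. No collagen gene passed an adjusted p under 0.05, and no gene of the whole table did (0%). With edgeR (33 collagen genes tested) and DESeq2 the count was also 0. At an unadjusted p under 0.05, limma had 4 collagen genes, where 1.36% of all genes tested were. DESeq2 had 3 (Col2a1, Col4a3 and Col11a1), where 1.16% of all genes were. edgeR had 3 of 33 (Col8a1, Col11a1 and Col12a1), where 1.14% were; all 3 were higher in knockout, where 1.06% of genes were, and 0 lower, where 0.0774% were. edgeR with the replicate number as a block had 5 of 33, where 4.28% were.

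The 4 genes in limma were Col12a1, Col8a1 and Col4a3 on the higher side and Col2a1 on the lower side. That is 3 of 41 higher, where 1.15% of all genes tested were, and 1 of 41 lower, where 0.211% were. Knockout and control libraries did not overlap in 4 genes higher in knockout (these 3 and Col17a1), against 2.65% of all genes, and in 1 gene lower (Col2a1), against 2.11%. Comparing same-numbered libraries, 11 chains were higher in the knockout library in all 3 pairs, against 12.2% of all genes, and 3 were lower in all 3 pairs, against 12.1%.

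The side of 0 was uneven without reference to a threshold. The fitted log2 fold change was above 0 for 32 of 41 chains (78%), while it was above 0 for 53% of all genes tested. The sign of 17 of the 41 chains turned under at least 1 of the 20 alternatives of tool, scaling, filter, block or left-out libraries. The median over the 41 chains was 0.49, beside 0.03 over all genes tested. Among the 23 chains with a mean of at least 100 scaled reads the median was 0.36 and 20 were above 0. The 10447 genes of the whole table at such levels had a median of -0.01, and 5064 of them were above 0. Within numbers 1, 2 and 3 the median over the 41 chains was 0.07, 0.85 and 0.47, the lowest in number 1.

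**Figure D2:**
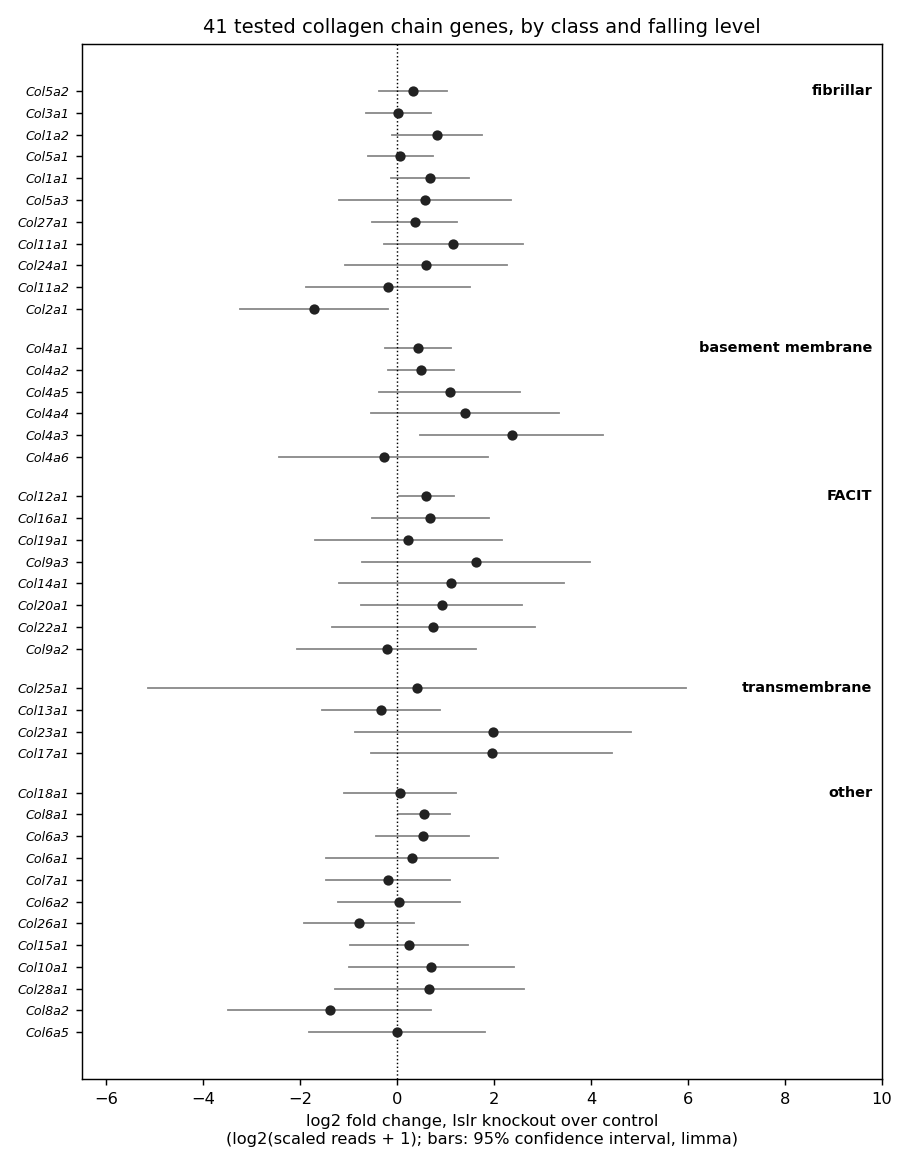
Log2 fold change of Islr knockout over control for the 41 tested chain genes, grouped by class and ordered by falling level, with limma's 95% confidence intervals. Points lie mostly right of 0, and the intervals of Col12a1, Col8a1, Col4a3 and Col2a1 do not include 0 before adjustment over all genes.

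Over the chains as a whole, the replicate number took a larger share of the variation between libraries than the group did. The number has more levels than the group, so it would take a larger share of random variation too. On the log2 scale, the number took a median of 50.5% of the sum of squares of the 41 chains and the group 16.8%. Over all genes tested the medians were 63.5% and 7.80%. For the 6 basement membrane chains they were 29.5% and 35.1%. The group share exceeded that of the number in 8 of 41 chains (19.5%), against 15.3% of all genes. With the replicate number as a block in the limma fit, 9 chains had an unadjusted p under 0.05 on the higher side, where 3.66% of all genes did, and 2 on the lower side, where 0.924% did. The 9 were Col1a2, Col4a3, Col4a5, Col5a3, Col8a1, Col11a1, Col12a1, Col17a1 and Col23a1, and the 2 were Col2a1 and Col26a1. None passed the adjusted threshold with the block (limma adjusted p = 0.9204 for each of these 11).

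The library labelled Islr knockout 1 and the library labelled control 2 were each left out in turn. Without Islr knockout 1, 7 chains had an unadjusted p under 0.05 on the higher side (Col1a1, Col1a2, Col4a1, Col4a2, Col11a1, Col16a1 and Col28a1), where 3.34% of all genes did, and 0 on the lower side, where 0.762% did. Col8a1, Col12a1, Col4a3 and Col2a1 were not among them, with log2 fold changes of 0.61, 0.47, 2.09 and -1.52, beside 0.56, 0.60, 2.36 and -1.71 with all libraries. The median over the 41 chains was then 0.55. Without control 2, 2 chains were higher (Col4a3 and Col14a1), where 1.75% of all genes were, 1 was lower (Col2a1), where 0.816% were, and the median was 0.42. Leaving out both libraries of number 1, with the block, gave 14 chains higher, against 5.64% of all genes, and 1 lower, against 1.1%. So few libraries are left that its p-values lean largely on the spread shared over all genes. In that fit 38 genes of the table passed the adjusted threshold (0.187%) and no chain did; the lowest adjusted p among chains was 0.1366, for Col11a1.

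**Figure D3:**
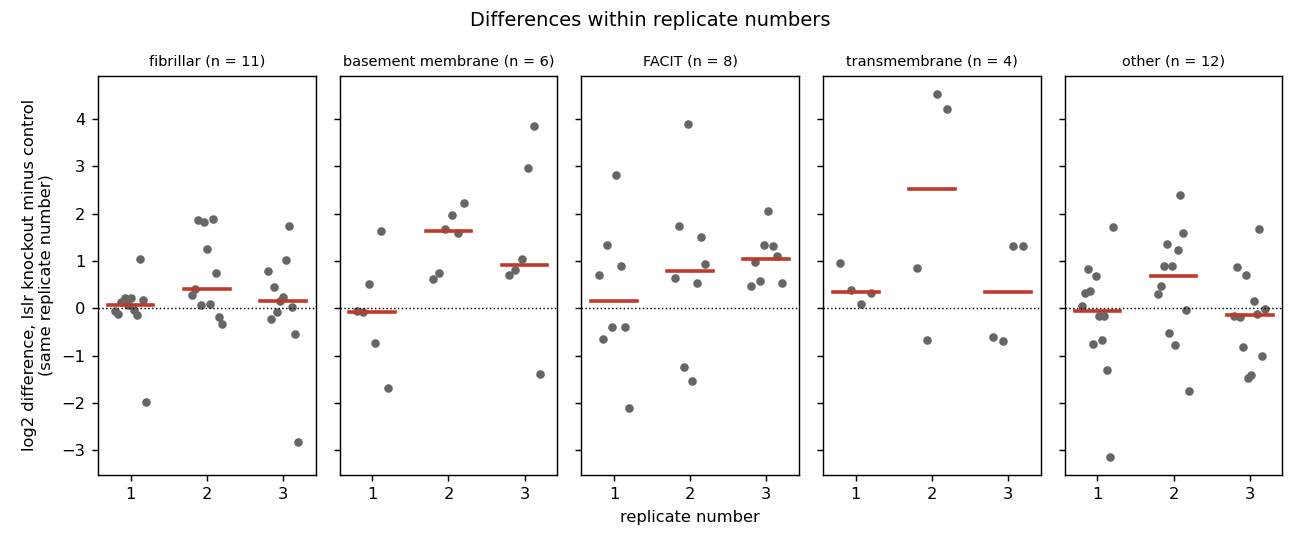
Log2 difference of the knockout library minus the control library of the same number, for each tested chain (points) and the class median (red bars), in replicate numbers 1, 2 and 3. Class medians lie between -0.07 and 0.35 in number 1 and between 0.41 and 2.53 in number 2.

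Among fibrillar chains, the type V chain Col5a2 and the type III chain Col3a1 had the most reads, and neither passed a threshold. Col5a2, a chain of the type V collagen that seeds fibrils, was the highest collagen per length, at 126 FPKM over all libraries. It had 18417, 15374 and 16296 scaled reads in knockout libraries and 19205, 12691 and 9465 in control libraries. The knockout values lay inside the control range, and the log2 fold change was 0.33 (95% confidence interval -0.37 to 1.04). Col5a1, its partner chain, had 2906, 2505 and 1646 against 2490, 2390 and 1747, with a log2 fold change of 0.07 (interval -0.60 to 0.73). Col3a1, the chain of type III collagen in elastic tissues, had 4616, 5449 and 6379 against 5046, 4092 and 7422, with a log2 fold change of 0.02 (interval -0.65 to 0.69). The signs of Col3a1 and Col5a1 depend on the tool or on single libraries.

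Type I collagen, the main protein of tendon and scar, was higher in the knockout library of every pair, with the widest gap in number 2. Col1a2 had 2536, 6284 and 5129 scaled reads in knockout libraries and 2306, 1715 and 3770 in control libraries. Islr knockout 1 lay inside the control range and the other knockout libraries above it, and the log2 fold change was 0.82 ± 0.41 (SE; 95% interval -0.12 to 1.75; limma adjusted p = 1.0, and 0.9204 with the replicate block). Without Islr knockout 1 it was 1.21 ± 0.37 (SE; limma adjusted p = 0.9998). Col1a1 had 1601, 3384 and 1982 against 1529, 960.2 and 1769, a log2 fold change of 0.68 ± 0.35 (SE; limma adjusted p = 1.0). Its differences in numbers 1, 2 and 3 were 0.07, 1.82 and 0.16, so that a single pair made up most of it. The COL1A1 chain outnumbers COL1A2 in the usual type I protein, whereas at the RNA level the ratio of Col1a1 to Col1a2 on the FPKM scale was 0.569, 0.486 and 0.348 in knockout libraries and 0.598, 0.505 and 0.423 in control libraries.

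Fibroblast markers varied with the libraries too. The sum of 12 fibro-adipogenic and fibroblast markers, 11 of them with a mean of at least 1, was 3877, 6777 and 10243 scaled reads in knockout libraries and 4838, 1844 and 8958 in control libraries. Its lowest library was control 2, which was also the lowest for Col1a1 and Col1a2. The highest libraries differed, with Islr knockout 3 for the sum and Islr knockout 2 for Col1a1 and Col1a2. None of the 12 markers was at 0 in all libraries. Gsn was the largest part of the sum in every library, at 2870, 3909 and 4703 against 3661, 934.6 and 6347. Dcn, which encodes decorin and is typical of fibroblasts, had 103.8, 370.9 and 1389 against 152.2, 65.3 and 478.1. The markers did not share a common order, as Clec3b, at few reads, was highest in control 2. The part of these cells in the collagen values was not tested, and in bulk RNA fewer cells of a type and less RNA per cell cannot be told apart.

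Col11a1, a chain of the type XI collagen that nucleates cartilage fibrils, had the smallest p of the family in the authors' deposited table (p = 0.0150, adjusted p = 0.9998, log2 fold change 1.48). It had 51.3, 235.3 and 277.9 scaled reads in knockout libraries and 56.7, 62.9 and 82.7 in control libraries. Islr knockout 1 was the lowest of all 6 libraries and the other knockout libraries were the highest. The log2 fold change in limma was 1.161 ± 0.63 (SE; 95% interval -0.28 to 2.60; adjusted p = 1.0), and 1.93 ± 0.41 without Islr knockout 1 (SE; adjusted p = 0.896). Its promoter is shown because of that p in the authors' deposited table. The RefSeq window on GRCm38.p6 covers chr3:114030290-114030539 on the plus strand, the 250 bases before the start, and lies in no annotated exon. Capitals mark matches to CCAAT or GGGCGG on either strand.
Col11a1: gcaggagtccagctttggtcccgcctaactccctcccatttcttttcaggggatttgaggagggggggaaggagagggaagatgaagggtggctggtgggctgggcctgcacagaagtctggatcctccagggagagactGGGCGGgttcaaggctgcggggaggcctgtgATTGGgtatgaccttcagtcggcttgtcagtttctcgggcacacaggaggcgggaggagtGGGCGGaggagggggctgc
It holds 1 match to CCAAT and 2 to GGGCGG. RefSeq windows were matched for 34 of the 43 chain genes, with 37 windows in all. Of these, 12 (32.4%) held CCAAT, beside 33.9% of the 32851 windows of all genes, and 21 (56.8%) held GGGCGG, beside 32.7%.

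Col2a1, the cartilage collagen, was the only chain with lower values in every knockout library than in any control library. It had 5.70, 18.5 and 4.18 scaled reads in knockout libraries, from 5, 20 and 5 reads, and 25.6, 23.3 and 35.8 in control libraries, from 23, 20 and 42 reads. The log2 fold change was -1.71 ± 0.67 (SE; 95% interval -3.24 to -0.18; limma adjusted p = 1.0). The sum of 8 tenocyte and cartilage markers was 3587, 3477 and 2553 scaled reads in knockout libraries and 3945, 3073 and 3775 in control libraries. All had a mean of at least 1 and none was at 0 in all libraries. Most of the sum came from Scx and Sox9. Scx had 2224, 1435 and 1315 against 2646, 1346 and 2832. Acan had 12.5, 294.3 and 33.5 against 3.33, 94.4 and 6.82, higher in the knockout library of every pair. The part of these markers in the Col2a1 values was not tested. The other fibrillar chains were Col5a3, described further on, Col27a1, Col24a1 and Col11a2. Col27a1 averaged 312 ± 77.5 scaled reads in knockout and 252 ± 105 in control libraries (SD, n = 3 each), Col24a1 42.5 ± 24.5 and 32.9 ± 31.3, and Col11a2 23.7 ± 20.1 and 24.7 ± 15.0.

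**Figure D4:**
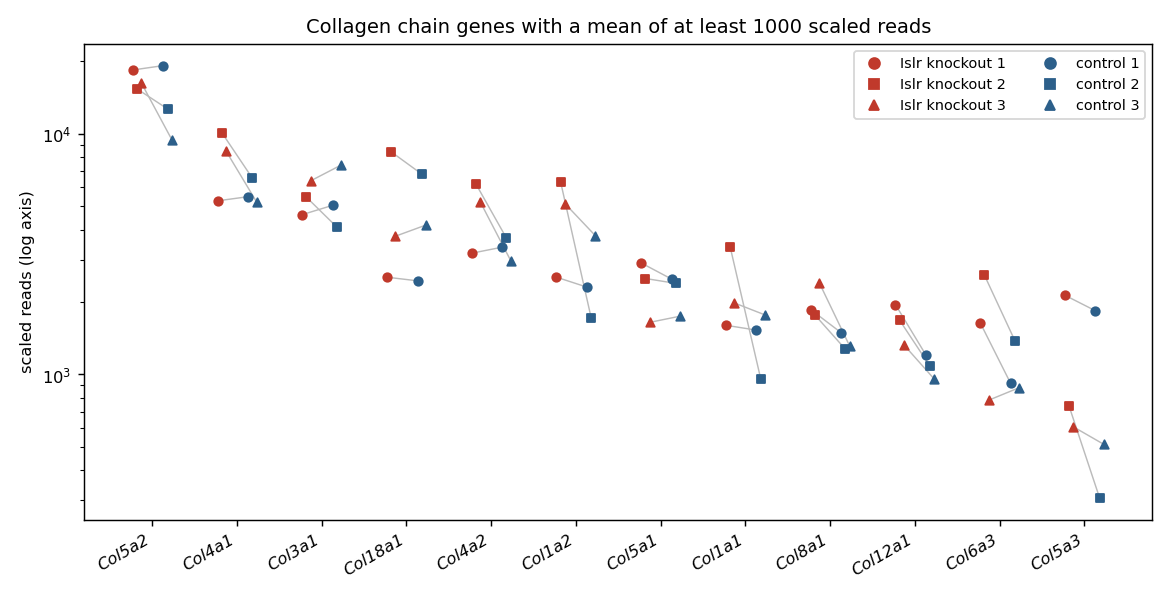
Scaled reads (log axis) of the 12 chain genes with a mean of at least 1000, in knockout libraries (red, left of each pair) and control libraries (blue, right); symbols give the replicate number and grey lines join libraries of the same number. The knockout libraries lie above all control libraries for Col8a1 and Col12a1, and lines run downwards in all 3 pairs for Col1a1, Col1a2 and Col5a3 as well.

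In the basement membrane class, the abundant type IV chains varied together across libraries. Col4a1 had 5266, 10121 and 8487 scaled reads in knockout libraries and 5479, 6552 and 5219 in control libraries. Col4a2 had 3191, 6181 and 5217 against 3381, 3685 and 2972. For both genes Islr knockout 2 and 3 lay above every control library and Islr knockout 1 lay among them. The log2 fold change was 0.42 ± 0.30 for Col4a1 and 0.49 ± 0.30 for Col4a2 (SE; limma adjusted p = 1.0 for each). Without Islr knockout 1 it was 0.70 and 0.77 (limma adjusted p = 0.9998 for each).

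These chains form a joint helix and are transcribed head to head from chromosome 8, Col4a1 from 11198423 to 11312826 on the minus strand and Col4a2 from 11312805 to 11449287 on the plus strand (GRCm38), with 22 bases in common. The ratio of Col4a1 to Col4a2 on the FPKM scale was 1.61, 1.60 and 1.59 in knockout libraries and 1.58, 1.73 and 1.71 in control libraries. The highest library exceeded the lowest 1.94 times for Col4a1 and 2.08 times for Col4a2, a wider span than that of the ratio. Endothelial cells are another source of type IV collagen. For 7 of 10 endothelial markers Islr knockout 2 and 3 were the highest libraries, and for Kdr, Vwf and Flt1 they were not. The sum of 10 such markers, all with a mean of at least 1 and none at 0 throughout, was 458.6, 1745 and 1614 scaled reads in knockout libraries and 478.8, 772.6 and 660.5 in control libraries. The cadherin gene Cdh5 had 110.7, 597.8 and 632.7 against 138.9, 226.1 and 161.1, and the receptor gene Kdr had 115.2, 81.2 and 108.0 against 96.7, 72.3 and 26.4. Their part in the type IV values was not tested.

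The minor type IV chains were far lower. Col4a5, a chain of mature basement membranes, had 70.7, 61.8 and 167.4 scaled reads in knockout libraries and 48.9, 18.6 and 81.0 in control libraries, higher in the knockout library of every pair with overlapping groups (log2 fold change 1.08 ± 0.64 SE; limma adjusted p = 1.0, and 0.9204 with the replicate block). Col4a3, known from the kidney glomerulus, had 16.0, 5.54 and 13.4 scaled reads in knockout libraries, from 14, 6 and 16 reads, and 4.44, 1.17 and 0 in control libraries, from 4, 1 and 0 reads. All knockout values lay above all control values. Its fitted log2 fold change of 2.36 ± 0.83 (SE; 95% interval 0.48 to 4.24; limma adjusted p = 1.0) rests on these few reads, and its exons overlap the annotated gene C430014B12Rik. The authors' deposited table gives Col4a3 a p of 0.0369 and an adjusted p of 0.9998. Its partner Col4a4 had 10.3, 11.99 and 20.1 against 17.8, 2.33 and 1.70. Col4a6 had at most 7 reads in any library.

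Col4a4 and Col4a3 also lie head to head, on chromosome 1, and 71 bases separate their starts. That stretch is shown because the gene with the smallest p in limma among collagens starts at its end. It covers chr1:82586850-82586920 on GRCm38.p6, is written on the plus strand (towards Col4a3), lies in no annotated exon and has 69.0% G or C.
Col4a4/Col4a3: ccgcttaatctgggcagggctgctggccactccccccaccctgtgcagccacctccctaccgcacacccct
It holds no match to CCAAT or GGGCGG. Col4a6 and Col4a5 lie head to head on chromosome X with 1308 bases between them.

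Most reads of the FACIT class came from Col12a1. Type XII collagen links fibrils to the surrounding matrix and is made by muscle as well as connective tissue. Col12a1 had 1952, 1678 and 1327 scaled reads in knockout libraries and 1204, 1080 and 955.4 in control libraries. Every knockout value lay above every control value, and the difference in numbers 1, 2 and 3 was 0.70, 0.64 and 0.47 on the log2 scale. The log2 fold change was 0.60 ± 0.25 (SE; 95% interval 0.04 to 1.17; limma adjusted p = 1.0, and 0.9204 with the replicate block). It stayed between 0.47 and 0.75 over the 20 alternatives, the lowest adjusted p among them being 0.4589. For Col12a1 the group took 71.9% of the sum of squares between libraries, the replicate number 26.4%.

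Col16a1, which sits on fibrils and in dermal basement membranes, had 142.6, 606.1 and 539.0 scaled reads in knockout libraries and 223.3, 181.8 and 274.4 in control libraries, with Islr knockout 1 the lowest of all 6 and the other knockout libraries the highest. Its log2 fold change was 0.69 ± 0.53 (SE; limma adjusted p = 1.0). Col19a1, found in some muscles and nerve tissue, had 723.3, 64.6 and 167.4 against 284.4, 152.7 and 112.5, with Islr knockout 1 as the highest library and Islr knockout 2 as the lowest. Its log2 fold change was 0.23, and -0.70 without Islr knockout 1. Col9a3, Col14a1, Col20a1, Col22a1 and Col9a2 averaged between 1.13 and 10.9 scaled reads over the 6 libraries, and their confidence intervals all included 0.

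Among transmembrane chains, the difference between libraries of a group was widest for Col25a1. Col25a1, which muscle cells use in motor innervation, is given because of its range, a choice made after its values were seen. It had 2890, 47.1 and 303.0 scaled reads in knockout libraries and 1495, 25.6 and 461.1 in control libraries, a span of 113 times. The libraries with the most Col25a1 (Islr knockout 1, control 1 and control 3) were also the 3 with the most Myog, and control 2 was lowest in both. The sum of 10 markers of myogenic differentiation, all with a mean of at least 1 and none at 0 in all libraries, was 377667, 12540 and 40133 scaled reads in knockout libraries and 399919, 3151 and 188926 in control libraries, and its part in the Col25a1 values was not tested. The replicate number took 97.2% of its sum of squares and the group 0.670%, and its log2 fold change of 0.40 had an interval from -5.15 to 5.95. Without Islr knockout 1 that value was -1.13.

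Col5a3, a fibrillar type V chain, and Col18a1 also differed by replicate number. Col5a3 had 2133, 737.1 and 606.0 scaled reads in knockout libraries and 1840, 306.5 and 512.2 in control libraries, higher in the knockout library of every pair (log2 fold change 0.57 ± 0.75 SE; limma adjusted p = 1.0; with the replicate block SE 0.25 and adjusted p = 0.9204). The Col5a3 value was 0.015 without Islr knockout 1, 0.020 without control 2 and 1.31 without control 1. Both libraries of number 1 were high. Col18a1, whose protein carries endostatin at its end, had 2536, 8411 and 3755 against 2450, 6803 and 4178. Both libraries of number 2, which had the least Myog among knockout and among control libraries, were the highest for Col18a1. The replicate number took 97.7% of its sum of squares, and the sign of its log2 fold change of 0.07 turned when Islr knockout 2 or control 1 was left out.

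**Figure D5:**
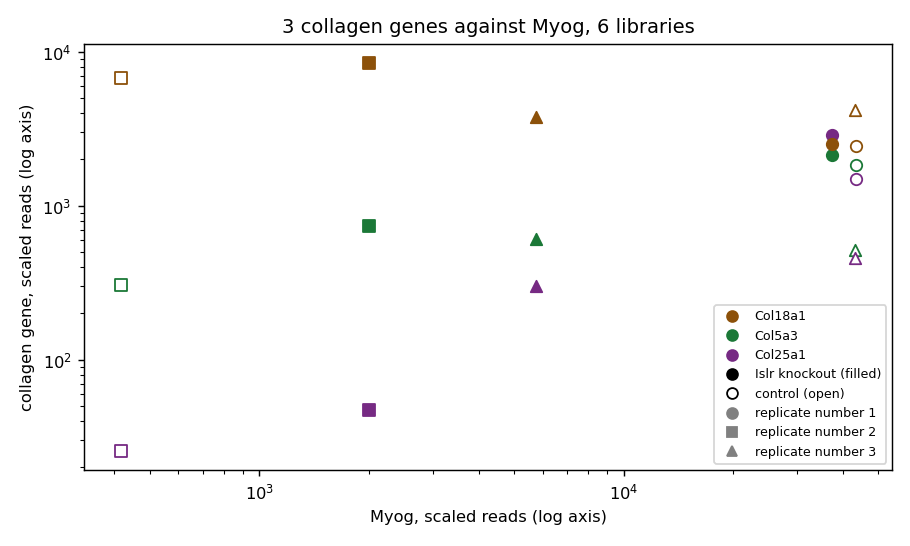
Scaled reads of Col18a1, Col5a3 and Col25a1 against scaled reads of Myog in the 6 libraries, both on log axes; filled symbols are knockout, open symbols control, and shapes give the replicate number. Col25a1 spans 25.6 to 2890 scaled reads, with its 3 highest libraries at the right, where Myog is highest, and Col18a1 is highest at the left. Col5a3 does not follow the order of Myog, as control 3 (512.2) lies below Islr knockout 2 (737.1) and Islr knockout 3 (606.0).

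The 250 bases before the RefSeq starts of Col25a1 and Col5a3 on GRCm38.p6 are shown as those of chains with wide ranges over the libraries, with capitals for CCAAT or GGGCGG on either strand. The choice was made after the values were seen. Some chains not shown had a wider range than Col5a3 (6.96 times), such as Col19a1 (11.2 times). The Col25a1 window is chr3:130180595-130180844 on the plus strand, inside the annotated span of the gene and in no exon. The Col5a3 window is chr9:20815068-20815317 on the minus strand and in no exon.
Col25a1: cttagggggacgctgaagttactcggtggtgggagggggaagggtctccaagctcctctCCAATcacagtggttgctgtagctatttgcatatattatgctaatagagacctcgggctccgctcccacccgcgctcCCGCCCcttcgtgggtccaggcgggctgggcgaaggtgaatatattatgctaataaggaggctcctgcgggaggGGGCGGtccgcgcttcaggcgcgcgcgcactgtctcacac
Col5a3: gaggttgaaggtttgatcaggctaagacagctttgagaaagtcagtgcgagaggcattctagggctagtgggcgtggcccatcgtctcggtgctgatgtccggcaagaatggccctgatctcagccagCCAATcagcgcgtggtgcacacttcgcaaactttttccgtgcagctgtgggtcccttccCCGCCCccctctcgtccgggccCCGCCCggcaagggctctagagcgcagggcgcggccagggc
Each holds 1 match to CCAAT and 2 to GGGCGG. Searched for CAGCTG, a form of the E-box that myogenic factors are known to bind, the Col5a3 window held 1 match and the Col25a1 window 0; 13.0% of all windows hold it.

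The remaining transmembrane chains were low. Col23a1 had 27.4, 22.1 and 62.8 scaled reads in knockout libraries and 25.6, 0 and 24.7 in control libraries. Col17a1, a chain of epithelial hemidesmosomes, had 18.3, 17.5 and 41.8 against 14.4, 0 and 16.2. In both genes control 2 stood at 0 and the difference was widest in number 2, at 4.53 for Col23a1 and 4.21 for Col17a1; for Col17a1 the knockout libraries lay above all control libraries, by little in number 1. The log2 fold change was 1.98 ± 1.24 for Col23a1 and 1.95 ± 1.10 for Col17a1 (SE; limma adjusted p = 1.0 for each, and 0.9204 with the replicate block). Without control 2 it was 0.41 for Col23a1 and 0.61 for Col17a1. Col13a1, a chain of the neuromuscular junction, had 216.8, 74.7 and 58.6 against 165.5, 120.0 and 95.5.

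Among the other chains, only Col8a1 had groups that did not overlap. Type VIII collagen is a network collagen of vessel walls and of the sheet beneath the corneal endothelium. Col8a1 had 1861, 1767 and 2410 scaled reads in knockout libraries and 1491, 1273 and 1313 in control libraries, without overlap. The difference in numbers 1, 2 and 3 was 0.32, 0.47 and 0.88, and the log2 fold change was 0.56 ± 0.24 (SE; 95% interval 0.01 to 1.10; limma adjusted p = 1.0, and 0.9204 with the replicate block). The group took 76.3% of its sum of squares and the number 10.1%. The 250 bases before its RefSeq start, shown because Col8a1 and Col12a1 were the abundant chains whose groups did not overlap and this is the one with a window, cover chr16:57754738-57754987 on the minus strand of GRCm38.p6 and lie in no exon.
Col8a1: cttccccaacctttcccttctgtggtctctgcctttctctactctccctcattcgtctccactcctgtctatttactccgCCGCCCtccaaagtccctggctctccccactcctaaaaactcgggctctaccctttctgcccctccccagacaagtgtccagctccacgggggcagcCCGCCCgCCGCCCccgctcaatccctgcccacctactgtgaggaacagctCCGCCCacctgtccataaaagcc
It holds 4 matches to GGGCGG, read on the other strand as CCGCCC, and none to CCAAT.

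Type VI collagen, a niche component of satellite cells, did not differ in one direction. Col6a3 had 1641, 2587 and 781.7 scaled reads in knockout libraries and 917.7, 1381 and 881.3 in control libraries (log2 fold change 0.52 ± 0.43 SE; limma adjusted p = 1.0). Col6a1 had 272.7, 459.4 and 701.4 against 211.1, 177.1 and 1227, and Col6a2 had 149.5, 163.3 and 129.7 against 92.2, 87.4 and 360.5. Control 3 was the highest library for Col6a1 and Col6a2, and for both the knockout library was higher in numbers 1 and 2 and lower in number 3. The ratio of Col6a3 to Col6a1 on the FPKM scale was 2.44, 2.28 and 0.452 in knockout libraries and 1.76, 3.16 and 0.291 in control libraries, so the low values were those of number 3 in both groups. Col6a5 averaged 1.05 scaled reads.

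Col26a1 was lower in the knockout library of every pair, at 91.3, 52.6 and 94.6 scaled reads against 102.2, 90.9 and 252.3 in control libraries (log2 fold change -0.78 ± 0.50 SE; limma adjusted p = 1.0, and 0.9204 with the replicate block). Col7a1 averaged 166 ± 65.3 scaled reads in knockout and 216 ± 136 in control libraries, Col15a1 133 ± 93.9 and 94.5 ± 6.28, Col10a1 77.5 ± 58.7 and 43.1 ± 31.0, Col28a1 67.8 ± 57.6 and 29.3 ± 10.4, and Col8a2 4.78 ± 5.10 and 9.21 ± 1.36 (SD, n = 3 each). None of these 5 passed an unadjusted p of 0.05.

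Genes that make, process, bind or break down collagen were read in the same fit, with 0 of 66 tested members past the adjusted threshold, with or without the replicate block. At an unadjusted p under 0.05, 1.15% of all genes were higher in knockout and 0.211% lower without the block, and 3.66% and 0.924% with it. With the block the counts were 1 of 19 for modification and folding (P4ha2, higher), 1 of 10 for secretion (Creb3l1, lower), 2 of 14 for processing and cross-linking (Lox and Loxl4, higher), 3 of 11 for receptors (Itga1, Itga2 and Adgrg6, higher) and 1 of 12 for breakdown (Mmp9, higher), each at an adjusted p = 0.9204 or above; Itga1 and Adgrg6 were named after their values were seen. The counts that follow are without the block. Among 19 tested genes of chain modification and folding, 0 had an unadjusted p under 0.05 and the median log2 fold change was 0.19. P3h2, a prolyl 3-hydroxylase, averaged 170 ± 39.3 scaled reads in knockout and 105 ± 65.3 in control libraries, and P4ha2, a subunit of prolyl 4-hydroxylase, 652 ± 138 and 461 ± 228. Among 10 genes of procollagen secretion the median was 0.07 and 0 had an unadjusted p under 0.05. Creb3l1, a transcription factor of the secretory pathway, averaged 1340 ± 502 against 1894 ± 271, and Mia3, which loads procollagen into carriers, 1507 ± 231 against 1328 ± 122.8.

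Among 14 genes of procollagen processing and cross-linking the median was 0.36, and 1 had an unadjusted p under 0.05, on the higher side. This was Lox, the lysyl oxidase that cross-links fibrils, with 5975, 6336 and 5335 scaled reads in knockout libraries and 5288, 1509 and 2647 in control libraries. The groups did not overlap, as in 2.65% of all genes on the higher side, and the log2 fold change was 1.08 ± 0.42 (SE; limma adjusted p = 1.0). Loxl4 had 66.2, 146.7 and 268.7 against 44.4, 46.6 and 96.3. Among 11 tested collagen receptors the median was 0.37, and 1 had an unadjusted p under 0.05, again on the higher side. Itga2, the integrin subunit for fibrillar collagen, had 53.6, 214.0 and 400.1 scaled reads in knockout libraries and 9.999, 65.3 and 31.5 in control libraries, higher in every pair with a slight overlap (log2 fold change 2.54 ± 0.87 SE; limma adjusted p = 1.0). Lair1, an immune receptor, had 1.14, 0.923 and 4.18 against 0 in all 3 control libraries. These are few reads, and Lair1 met the mean of at least 1 scaled read only through the knockout libraries. Among 12 tested genes of collagen breakdown the median was 0.60 and 0 had an unadjusted p under 0.05. Mmp9, a gelatinase, had 4.56, 112.6 and 187.5 against 1.11, 6.99 and 14.5, and Ctsk, the collagen-cleaving cathepsin K, 112.9, 283.2 and 509.7 against 201.1, 57.1 and 331.5. In number 1 the median of the breakdown list was -0.19 and in numbers 2 and 3 it was 1.32 and 0.71. The 8 macrophage and immune markers summed to 99.3, 309.1 and 521.4 scaled reads in knockout libraries, against 165.5, 134.0 and 161.9 in control libraries. Of them, 7 had a mean of at least 1 and none was at 0 in all libraries. Cd14 was the largest part of the sum in every library, at 45.6, 204.8 and 222.6 against 79.99, 93.2 and 76.7. Ptprc and Aif1 were at few reads. The markers did not share a common order, as Itgam, also at few reads, was highest in control 3 (13.6). The part of this sum in the values of Mmp9, Lair1 and Ctsk was not tested.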

How the data were processed

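Mouse satellite cell RNA was sequenced in 6 libraries. The authors' main table gives, for each gene and library, a deposited signal (read counts over a size factor) and, per the file headers, FPKM. The FPKM length fits the length column (within 1%) for 1 of the 43 chains. Its log2 fold change and p-value columns are the authors' own, per the file headers. Raw counts were deposited by the authors for 1031 features, and 6 per-sample columns went unused. DESeq2 1.16.1, edgeR 3.18.1, HISAT2 2.0.5, HTSeq and Trimmomatic appear in the submitters' processing notes, whose order is not stated. The sources used here do not give the strand setting, so where exons overlap another gene (12 chains) the reads cannot be told apart. Coordinates and symbols of all 43 chains equal GENCODE M21 on GRCm38.

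Overflow lines (36) were dropped. Whole reads were recovered from the scaled values: 100% were whole within 0.01, and all 480 genes also in the raw table had equal counts. The column of control 1 has 2 digits exchanged against its label. Under this assignment, 99.8% of 14277 genes had the sign of the authors' fold change. That check compares group means, so it cannot tell control 1 from the other control libraries. Tests used limma 3.58.1 (trend and robust, pseudocount 1), as the values are scaled. Alternatives were edgeR 4.0.16 quasi-likelihood and DESeq2 1.42.0 on recovered reads. All were tested on simulated data without an effect of the replicate number, which cannot show how they behave with such an effect. Deviations of same-numbered libraries correlated at 0.689, 0.633 and 0.625 over 14280 genes, so numbers were taken as pairs in the block; the labels do not say what they mark. Values in every library were given for chains with a mean of at least 1000, an unadjusted p under 0.05 with or without the block, or groups that do not overlap. The 2 genes of smallest p in each pathway list were given by library or as group means. Other chains shown by library were chosen after their values were seen. Members and lists were chosen with earlier results of these data known. A script in Python 3.11.15 drew figures with matplotlib 3.10.9.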

Additional observations from a re-analysis of the deposited data

How the results depend on the processing

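No collagen gene passed the adjusted threshold in any of the 20 alternatives. For all genes that count was 0 too, except 38 with the replicate block and without both libraries of number 1. The 4 collagen genes at an unadjusted p under 0.05 (1.36% of all genes) became 2 without a filter on low values (1.32%), 11 with the replicate block in limma (4.59%), and 15, 7 and 9 with the replicate block and without both libraries of number 1, 2 or 3 (6.74%, 9.94% and 2.03%). The fits without a number have few libraries and lean largely on the spread shared over all genes. Leaving out 1 library gave 2 to 7, with 7 without Islr knockout 1 (4.10%) and 2 without Islr knockout 2 (1.29%) or 3 (0.452%). The median log2 fold change of the chains ran from 0.29 to 0.60, and that of fibrillar chains was 0.15 with the replicate block and without number 3. The median of the 4 transmembrane chains, 1.17, ran from 0.030 without control 2 to 2.12 without control 1. The sum of the chains, 0.36 higher on the log2 scale, kept its sign under each scaling and with any 1 library left out.

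Over all alternatives the sign turned for 17 of 41 chains and for 24 it did not. Among the 19 chains chosen by level, p or overlap, it turned for 3. Col3a1 was at -0.0068 in edgeR with TMM, -0.0102 in edgeR with DESeq2 size factors and in DESeq2, and -0.17 with the replicate block and without number 2; leaving out 1 library gave -0.17 to 0.26, below 0 without Islr knockout 3, control 1 or control 2. Col5a1 was at -0.0091 with the replicate block and without number 1; leaving out 1 library gave -0.10 to 0.31, below 0 without Islr knockout 1 or control 3. Col18a1 was at -0.052 with the replicate block and without number 2; leaving out 1 library gave -0.41 to 0.45, below 0 without Islr knockout 2 or control 1. The median of the 12 other chains crossed 0 as well (-0.10 to 0.45). The cause was not tested. Chains with few reads are limited by counting error.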
